A study of Sus scrofa with 13 samples.

Results

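The annexins are a family of proteins that bind membranes when calcium rises. Their messages were followed through 5 groups of pig embryos, Sus scrofa. The deposited gene table holds 28232 genes, and the 10 genes described here are those with the symbols ANXA1, ANXA2, ANXA3, ANXA4, ANXA5, ANXA6, ANXA7, ANXA8, ANXA9 and ANXA11. Membership rests on the symbol and on no threshold of a value, so all 10 are accounted for and no gene lies just inside or outside. The table describes each as the annexin that its symbol names. ANXA10 and ANXA13 are annexins of the same table outside this list, and their values are given for completeness. The family was chosen by a proposal that had the CPM levels (read counts scaled by library total) of these libraries in view, over all 5 groups. Its levels are therefore a description, and the fitted differences and p-values below measure a difference against the spread between libraries without being independent support for it.

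Messenger RNA was read from pooled whole embryos. In vitro fertilisation (IVF) gave 3 libraries of 4-cell embryos, 3 of blastocysts and 3 of blastocysts that had hatched, and in vivo development gave 2 of each of the later pair of stages. The blastocyst is an embryo with a fluid-filled cavity, an outer epithelium called the trophectoderm and an inner cell mass, and a hatched blastocyst has left its zona pellucida. The labels name no genetic change and no drug in any group. They give no breed, sire, embryo age, culture medium or pool size, and no in vivo 4-cell group is among the samples, so the change from the 4-cell stage is described for IVF embryos only. The labels do not say that the libraries of a group came from separate animals or fertilisation rounds. What the p-values weigh is library-to-library spread, possibly technical, and embryo origin cannot be told apart from the animals, days or pools behind it.

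Every annexin has a conserved core that grips acidic phospholipids through calcium, and a tail at its start that differs between members and takes up partners such as small S100 proteins. Members are known for linking the actin skeleton to membranes, for resealing torn plasma membranes, for the traffic of vesicles and for covering phosphatidylserine that has come to the cell surface. In epithelia, the kind of tissue the trophectoderm is, ANXA1, ANXA2 and ANXA4 are known as abundant members.

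Levels are given as CPM, the read count of a gene divided by the total of its library and put on one common scale. Differences are log2 fold changes with a standard error from the quasi-likelihood test of edgeR, and a gene is called where the p-value adjusted by Benjamini-Hochberg over all genes tested is under 0.05. All 10 annexins passed the edgeR filter on low counts in both fits. Blastocysts from IVF had more annexin message than in vivo blastocysts, and this came mainly from ANXA1, ANXA2 and ANXA5, with ANXA8 at a low level. In blastocysts 4 of 10 members were called higher after IVF and 0 lower, where 6.09% of all genes tested were called higher and 4.74% lower. The median log2 difference of the 10 was 0.63, beside 0.05 over all genes. In hatched blastocysts 3 of 10 were called higher after IVF (ANXA1, ANXA2 and ANXA8) and 0 lower, where 6.96% of all genes were called higher and 4.88% lower, and the median was 0.73 beside 0.04. These shares of all genes are the background for the counts. Because the family was chosen with these libraries in view, nothing is read from the distance between them. Fitted together with the 4-cell libraries, all 13 in 1 model, 0 of 10 members were called at either stage (ANXA1 adjusted p = 0.282 and 0.112). Only 7 and 92 genes of the whole table were called in that fit, so the 0 is not particular to annexins. The log2 differences of the members moved little (ANXA1 2.09 and 2.83).

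**Figure D1:**
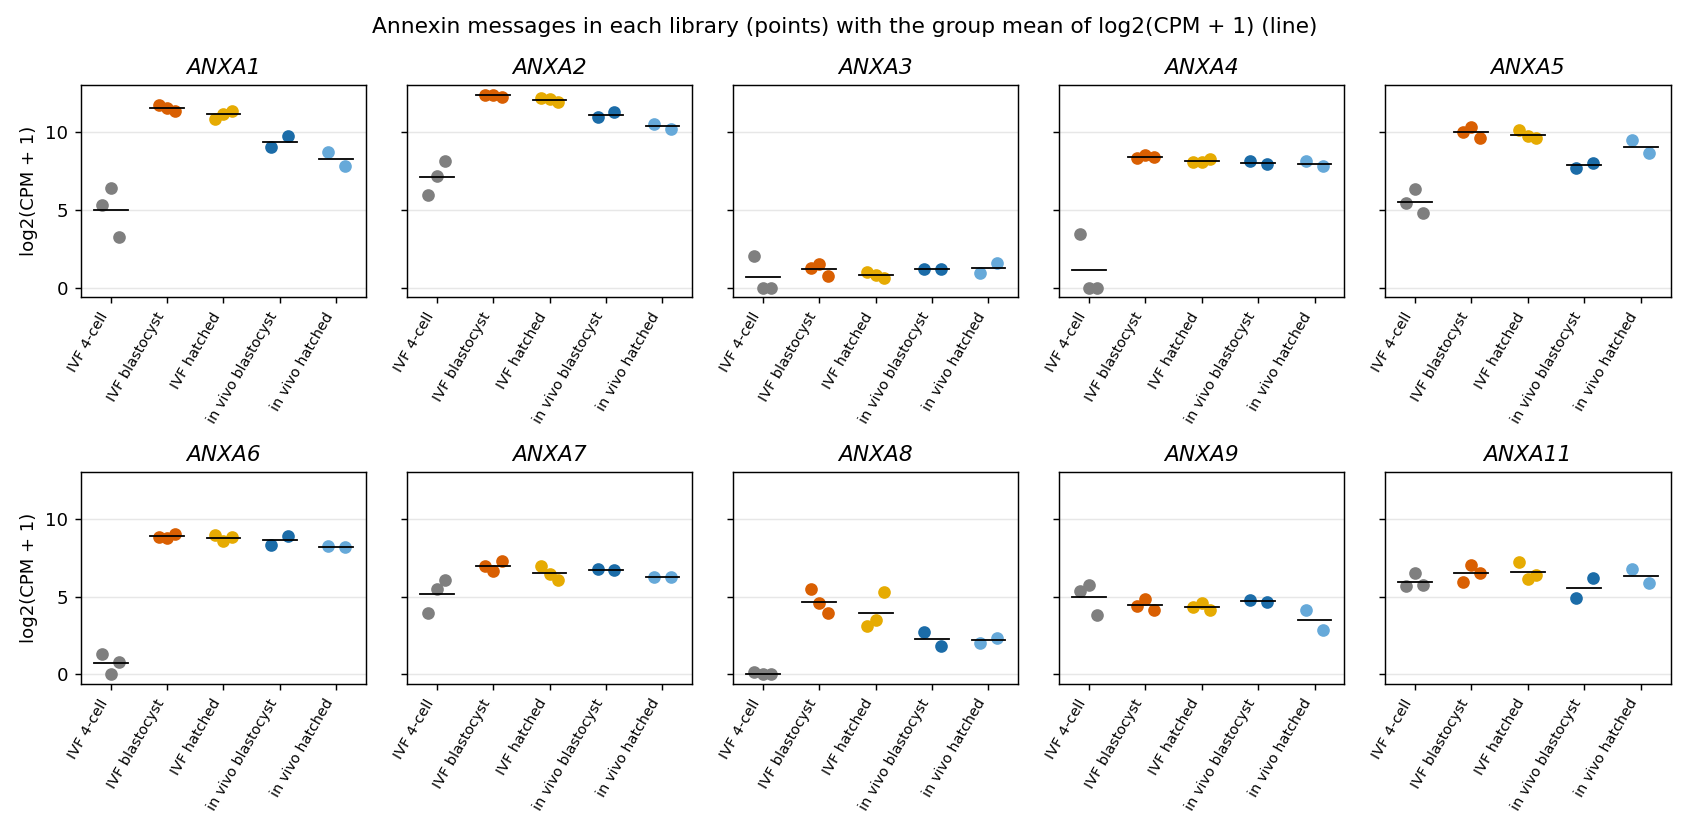
Each panel shows 1 annexin, with the level of every library as log2(CPM + 1) on the vertical axis, a point per library and a line at the group mean. ANXA1, ANXA2 and ANXA5 stand above both in vivo groups in all 6 IVF blastocyst and hatched libraries, and ANXA6 and ANXA8 rise from near 0 in 4-cell embryos, as ANXA4 does from 0 in libraries 2 and 3 and 9.74 CPM in library 1.

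ANXA2 forms a complex of paired chains with the small protein S100A10 at the inner face of the plasma membrane and binds plasminogen and its activator at the outer face. The pig gene lies on chromosome 1 from 111588721 to 111635064 (Sscrofa11.1, RefSeq). Its level was 5471, 5491 and 4903 CPM in IVF blastocysts and 4806, 4500 and 3969 CPM in IVF hatched blastocysts. In vivo blastocysts had 1981 and 2518 CPM, and in vivo hatched blastocysts 1506 CPM in the library without a replicate number and 1184 CPM in library 2. The 5 groups did not overlap in ANXA2, running from IVF blastocysts down through IVF hatched, in vivo blastocysts and in vivo hatched to 4-cell embryos. On the log2 scale ANXA2 was 1.21 ± 0.21 (SE) higher after IVF in blastocysts (adjusted p = 0.00692) and 1.80 ± 0.21 higher in hatched blastocysts (adjusted p = 0.000602). The call in hatched blastocysts held with any 1 library of that comparison left out, and that in blastocysts was lost without in vivo library 1 (1.15, adjusted p = 0.0679).

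ANXA1, a target of glucocorticoid hormones that inhibits phospholipase A2 activity and acts on formyl peptide receptors, lies on chromosome 1 from 226414200 to 226431963. In IVF blastocysts it was at 3381, 2969 and 2587 CPM, and in IVF hatched blastocysts at 1875, 2325 and 2684 CPM. In vivo blastocysts had 538 and 848 CPM, and in vivo hatched blastocysts 433 CPM in the unnumbered library and 231 CPM in library 2. All 6 IVF libraries were above all 4 in vivo libraries, while the IVF blastocyst and IVF hatched ranges overlapped. ANXA1 was 2.09 ± 0.31 higher after IVF in blastocysts (log2, adjusted p = 0.00448) and 2.86 ± 0.33 higher in hatched blastocysts (adjusted p = 0.000515). Both calls held with any 1 of the 5 libraries of the comparison left out, with adjusted p up to 0.0425 and 0.00327.

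ANXA5 binds exposed phosphatidylserine, is used in the laboratory to stain dying cells, and forms an anticoagulant layer on placental trophoblast. Its gene is on chromosome 8 from 102387833 to 102420868. IVF blastocysts had 1052, 1286 and 796 CPM, and IVF hatched blastocysts 1154, 851 and 807 CPM. In vivo blastocysts were at 205 and 262 CPM, while in vivo hatched blastocysts had 722 CPM in the unnumbered library and 406 CPM in library 2. The in vivo blastocysts were thus the lowest of the 4 later groups in ANXA5, and every IVF library of those stages was above every in vivo library. The difference in blastocysts was 2.14 ± 0.32 (log2, adjusted p = 0.00448) and was called with any 1 library left out. In hatched blastocysts it was 0.80 ± 0.30 (adjusted p = 0.111), which was not called. With single libraries left out it ran from 0.40 to 1.34, the latter without the unnumbered library. ANXA5 was called there by DESeq2 (0.77, adjusted p = 0.0474) and by edgeR without a filter on low counts (0.80, adjusted p = 0.0232).

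ANXA8, an epithelial annexin, was the scarce member of the group called at both stages (chromosome 14, 88319209 to 88340716). It had 44.3, 22.9 and 14.2 CPM in IVF blastocysts, 7.86, 10.6 and 37.8 CPM in IVF hatched blastocysts, 5.74 and 2.61 CPM in vivo, and 3.16 and 4.07 CPM in vivo after hatching. The IVF and in vivo ranges did not overlap at either stage, but IVF libraries of 1 group spread widely. The log2 differences were 2.63 ± 0.73 (adjusted p = 0.0409) and 2.44 ± 0.72 (adjusted p = 0.0499). In blastocysts the call was lost without in vivo library 1 (3.45, adjusted p = 0.0966), in vivo library 2 (2.12, 0.153), or the first or second IVF library (2.09 and 2.74, adjusted p = 0.111 and 0.0751). In hatched blastocysts it was lost without either in vivo library (2.31 and 2.56, adjusted p = 0.162 and 0.221) or without IVF library 2 or 3 (2.67 and 1.47, adjusted p = 0.0588 and 0.154), and also with DESeq2-style size factors (adjusted p = 0.0529) or library totals alone (adjusted p = 0.0568).

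The other 6 members were not called between the origins in the edgeR fit of the 10 later libraries. ANXA4, an annexin of epithelial and secretory membranes, and ANXA6, whose core is longer than that of its relatives, were abundant in all later groups. ANXA4 lay between 324 and 377 CPM in IVF blastocysts and at 277 and 247 CPM in vivo, with a log2 difference of 0.36 ± 0.20 (adjusted p = 0.264). ANXA6 differed by 0.21 ± 0.20 in blastocysts (adjusted p = 0.546) and by 0.65 ± 0.20 in hatched blastocysts (adjusted p = 0.0586), where DESeq2 called it (0.61, adjusted p = 0.0161). ANXA7 and ANXA11, which carry long tails and bind the calcium sensors sorcin and ALG-2, were at 67.0 to 156 CPM and 29.2 to 148 CPM across the 10 later libraries. Their log2 differences were 0.25 ± 0.28 and 0.91 ± 0.46 in blastocysts and 0.37 ± 0.28 and 0.33 ± 0.45 in hatched blastocysts, with adjusted p from 0.227 to 0.693. ANXA11 was called in blastocysts without a filter on low counts (0.91, adjusted p = 0.0155). ANXA9, a member with altered calcium sites, differed by -0.28 ± 0.40 and 0.86 ± 0.42 (adjusted p = 0.71 and 0.207). With single libraries left out the hatched value of ANXA9 ran from 0.28 to 1.78, the latter without the unnumbered library. ANXA3 was near 1 CPM in every later group.

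**Figure D2:**
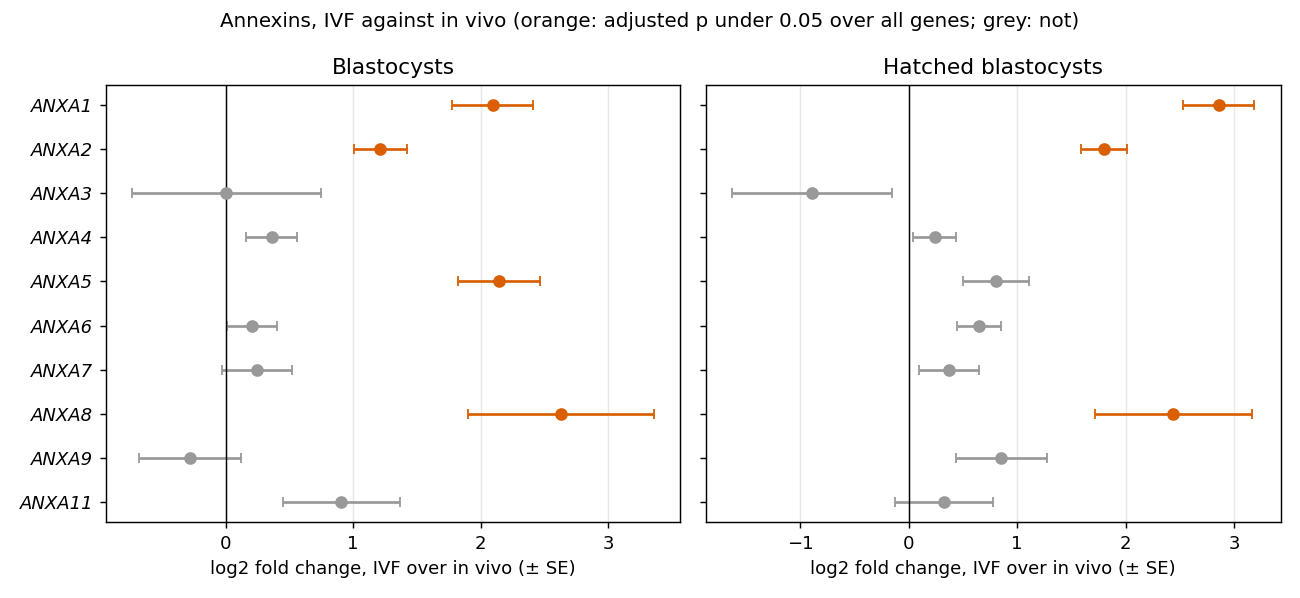
The log2 fold change of each annexin, IVF over in vivo, with its standard error, is drawn for blastocysts (left) and hatched blastocysts (right), in orange where the adjusted p is under 0.05. ANXA1 is at 2.09 in blastocysts and 2.86 in hatched blastocysts, and ANXA5 at 2.14 and 0.80.

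In embryos that hatched in vivo, ANXA5 was higher than before hatching while ANXA1 and ANXA2 were lower. Of the 10 members 1 was called higher and 2 lower, where 6.96% of all genes tested were called higher and 7.39% lower, and the median was -0.42 beside -0.01. ANXA5 changed by 1.22 ± 0.33 on the log2 scale (adjusted p = 0.0308), ANXA1 by -1.11 ± 0.32 (adjusted p = 0.0405) and ANXA2 by -0.81 ± 0.22 (adjusted p = 0.0328). The 2 libraries before and the 2 after hatching did not overlap for any of the 3 genes. They did not overlap for ANXA6, ANXA7 and ANXA9 either, which were not called, and the share of such genes among all was not counted. The other 7 members had values from -1.24 ± 0.45 (ANXA9, adjusted p = 0.0881) to 0.71 ± 0.49 (ANXA11, adjusted p = 0.36) and were not called. ANXA9 was called by DESeq2 (-1.24, adjusted p = 0.0333) and without a filter on low counts (-1.23, adjusted p = 0.0139). With single libraries left out ANXA9 ran from -2.16, without the unnumbered library, to -0.66. With 2 libraries a side, these calls rest on single libraries: ANXA1 and ANXA2 lost theirs without in vivo blastocyst library 1 (-1.29 and -0.85), blastocyst library 2 (-0.85 and -0.72) or hatched library 2 (-0.68 and -0.59). ANXA5 lost its call without blastocyst library 1 or 2 (1.17 and 1.302) or the unnumbered hatched library (0.68, adjusted p = 0.185). In the fit of all 13 libraries none of the 10 was called, where only 101 genes of the whole table were.

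No annexin was called at the hatching of IVF embryos. In the edgeR fit 0 of 10 members were called, 0 had an unadjusted p under 0.05, and DESeq2 called 0. Of all genes 0% were called higher and 0.0451% lower. ANXA1 differed by -0.34 ± 0.26, ANXA2 by -0.22 ± 0.18 and ANXA5 by -0.12 ± 0.26, each with an adjusted p of 1. The other 7 lay between -0.81 ± 0.67 (ANXA3) and 0.13 ± 0.40 (ANXA11). For ANXA2 and ANXA4 the IVF blastocyst and IVF hatched libraries did not overlap, and for the other members they did. How many of all genes show such a gap was not counted, so nothing is read from it.

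Whether the hatching change itself differed between the origins was tested as an interaction. By edgeR 0 of 10 annexins were called, where 2.79% of all genes were called higher and 1.93% lower. As IVF change minus in vivo change (log2), ANXA1 was at 0.76 ± 0.41, ANXA2 at 0.58 ± 0.28 and ANXA9 at 1.13 ± 0.57. Their adjusted p-values were 0.304, 0.256 and 0.273. With single libraries left out, ANXA1 ran from 0.34 to 1.35 and ANXA9 from 0.56 to 2.06. ANXA5 came closest to a call, at -1.34 ± 0.42 (adjusted p = 0.0923), and it was the 1 member with an unadjusted p under 0.05. DESeq2 called this 1 member (adjusted p = 0.0173), as did edgeR without a filter on low counts (adjusted p = 0.00592). The value was -1.74 without in vivo hatched library 2 (adjusted p = 0.0379) and -0.80 without the unnumbered library (adjusted p = 0.242).

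From the 4-cell stage to the IVF blastocyst most of the family rose. In IVF blastocysts 7 of 10 members were called higher than in 4-cell embryos (ANXA1, ANXA2, ANXA4, ANXA5, ANXA6, ANXA7 and ANXA8) and 0 lower, where 25.7% of all genes were called higher and 30.6% lower. The median log2 difference was 4.90 beside -0.23 over all genes. In IVF hatched blastocysts 6 of 10 were called higher, without ANXA7 (1.35 ± 0.58, adjusted p = 0.0761, and 0.0445 in the fit of all 13 libraries), and 0 lower, where 25.7% of all genes were called higher and 30.9% lower, with a median of 4.74 beside -0.24. The median of all genes against 4-cell embryos was -0.30 and -0.32 with the size factors of DESeq2 and -0.50 and -0.55 with library totals alone, so this comparison carries a shift of the scale. The counts of 7 and 6 members were the same under both of these scalings, and without 4-cell library 1 each count was 8. In pools of whole embryos, fewer cells of a type and less RNA per cell cannot be told apart.

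ANXA1 had 38.2, 83.1 and 8.49 CPM in the 4-cell libraries, ANXA2 62.8, 145 and 283 CPM, and ANXA5 43.4, 79.4 and 26.9 CPM. None of these reached the lowest later library of the same gene. ANXA1 was 6.41 ± 0.78 higher in IVF blastocysts (log2, adjusted p = 0.000266), ANXA2 5.15 ± 0.65 (adjusted p = 0.000327) and ANXA5 4.66 ± 0.47 (adjusted p = 0.000103). These 3 genes thus had message in the cleavage embryo in every library, at a small part of the blastocyst level. ANXA6 (chromosome 16, 71857229 to 71913723) was nearly absent, at 1.51, 0 and 0.772 CPM against 438 to 530 CPM in IVF blastocysts, a log2 difference of 9.57 ± 1.24 (adjusted p = 0.00037).

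ANXA4 (chromosome 3, 72623311 to 72654591) had 9.74 CPM from 329 reads in 4-cell library 1 and 0 reads in libraries 2 and 3. A count of 0 allows up to 0.0902 CPM in library 2 and 0.08905 CPM in library 3, from 3 counts per library, and such limits cover counting error only. The fitted log2 difference was 7.20 ± 1.97 (adjusted p = 0.0128). Set against the mean of these limits, ANXA4 was 3850-fold higher in IVF blastocysts and 3180-fold higher in IVF hatched blastocysts. Those folds leave out library 1 with its 9.74 CPM and the spread between libraries. For ANXA8 the 4-cell embryos held 4 reads in library 1 and 0 in the others, so that its fitted difference of 9.62 ± 1.31 (adjusted p = 0.00047) rests on 4 reads. ANXA3, a member known from neutrophil granules (chromosome 8, 73970314 to 73993039), had 108 reads in 4-cell library 1 and 0 in libraries 2 and 3. Its level in that library, 3.20 CPM, was above that of any later library (0.524 to 2.06 CPM). ANXA3 was not called against 4-cell embryos with all libraries (0.82 ± 1.76, adjusted p = 0.714) and was called higher without 4-cell library 1 (adjusted p = 0.00145). That library stands apart from the other two: 578 genes had at least 30 reads in it and none in libraries 2 and 3, and S100A10 (1120 reads) and AHNAK (1061 reads) were likewise high in it. The part of this library in these 3 members was not tested beyond leaving it out.

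ANXA7 (chromosome 14, 76205238 to 76234646) rose modestly, from 14.3, 44.4 and 65.2 CPM to 126, 101 and 156 CPM in IVF blastocysts (1.77 ± 0.59, adjusted p = 0.0298). This call was lost without 4-cell library 2, IVF blastocyst library 1 or IVF blastocyst library 3 (1.86, 1.80 and 1.63, with adjusted p = 0.0577, 0.0643 and 0.0819). ANXA11 (chromosome 14, 81835205 to 81879565) had 50.01 to 91.6 CPM in 4-cell embryos and 61.1 to 133 CPM in IVF blastocysts, ranges that overlapped (0.79 ± 0.44, adjusted p = 0.155). Against IVF hatched blastocysts ANXA11 was called without 4-cell library 2 only (1.33, adjusted p = 0.0444). ANXA9 (chromosome 4, 98224436 to 98243957) had 39.6, 52.7 and 13 CPM in 4-cell embryos, and its group mean of 35.1 ± 20.2 CPM (SD, n = 3) was the highest of the 5 groups, though overlapping the next. Among the 10 members, 7 had their highest group mean in IVF blastocysts. ANXA9 was highest in 4-cell embryos, ANXA11 in IVF hatched and ANXA3 in in vivo hatched blastocysts, each overlapping with its neighbour in the order.

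For shares of a sum of annexins, ranks and ratios, different genes were compared per gene length. This used the FPKM values of the authors (fragments scaled by gene length and library size), of which the in vivo hatched group has only library 2 here. Where genes stand side by side in CPM elsewhere, gene length is not corrected for. The summed FPKM of the 12 annexins was 226 ± 77.7 in 4-cell embryos, 6953 ± 561 in IVF blastocysts and 5744 ± 160 in IVF hatched blastocysts (SD, n = 3 each). In vivo it was 2374 and 3037 in blastocysts and 1648 in hatched library 2. None of these 3 in vivo libraries reached the lowest IVF library of either stage, at 5596. ANXA2 made up between 47.7% and 59.96% of this sum in the group means. The lowest of these means, that of the 4-cell embryos, covers libraries at 32.8%, 38.25% and 72.2%. In IVF blastocysts ANXA2 ranked 7 or 8 among the 28232 genes of a library. In vivo ANXA2 ranked 25 and 39 in blastocysts and 55 in hatched library 2.

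The make-up of the sum also had different values by origin, which were not tested. ANXA1 contributed 27.8% ± 1.97 in IVF blastocysts and 26.1% ± 5.28 in IVF hatched blastocysts (SD, n = 3), against 16.5% ± 2.43 in in vivo blastocysts (n = 2) and 9.12% in in vivo hatched library 2. ANXA4 contributed 5.15% and 5.14% in the IVF groups and 10.2% and 14.5% in vivo. ANXA5 contributed 4.57% and 4.58% in the in vivo blastocyst libraries and 13.1% in in vivo hatched library 2, beside 7.92% and 8.64% in the IVF groups. Those shares are fractions of 1 sum, so a larger share of a member can come with a smaller share of the others. In 4-cell embryos ANXA7 and ANXA11 together with ANXA9 made a visible part, with 9.22%, 11.6% and 2.69%.

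**Figure D3:**
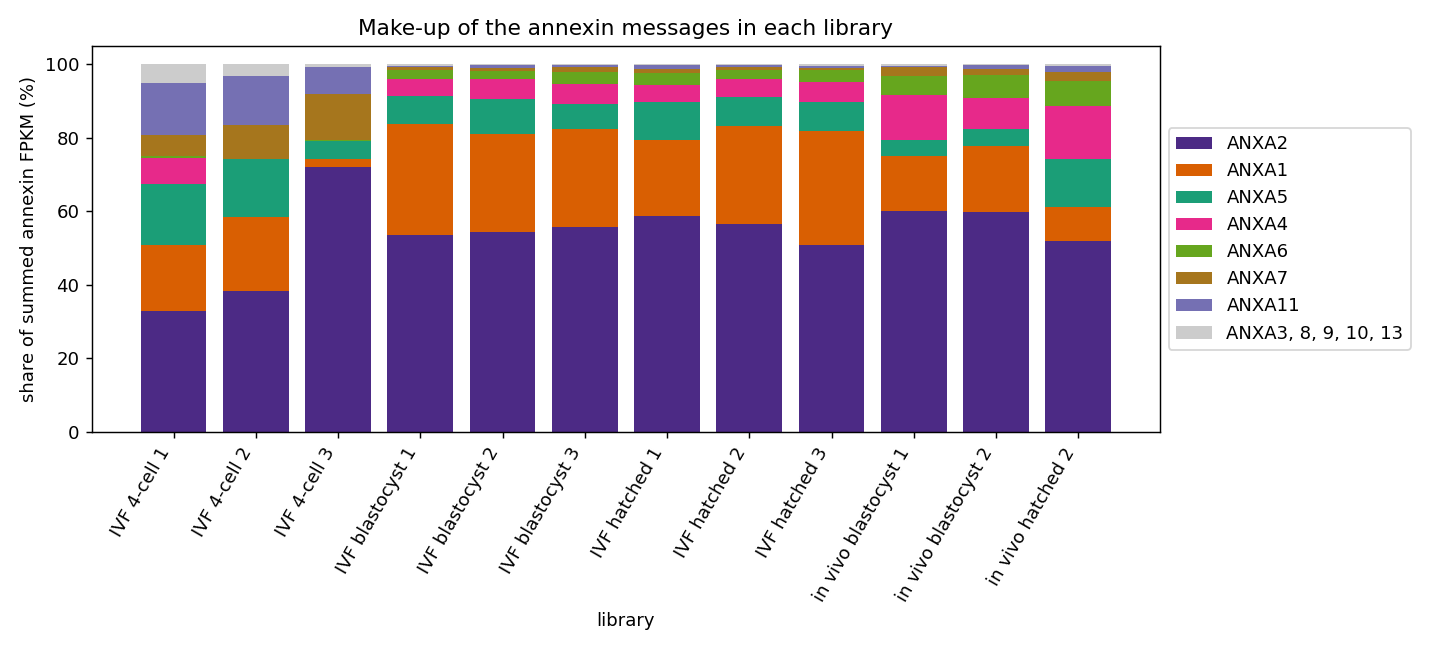
Stacked bars give the percent of the summed annexin FPKM that each member contributes in each of 12 libraries, in vivo hatched library 2 standing alone in its group. ANXA2 is the largest block in every library, and the ANXA1 block spans 20.7% to 31.2% in IVF blastocyst and hatched libraries and 9.12% to 18.2% in the 3 in vivo libraries.

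Among the S100 and AHNAK partners, 5 of the 9 measured genes were called higher after IVF in blastocysts and 5 in hatched blastocysts, and 0 were called lower, beside 6.09% and 6.96% of all genes called higher. The median log2 difference was 2.01 and 1.61, against 0.05 and 0.04 over all genes. The 5 genes were S100A10, S100A11, S100A6, S100A13 and S100A16 at both stages. S100A10, the partner of ANXA2, had 259, 282 and 275 CPM in IVF blastocysts, 234, 111 and 148 CPM in IVF hatched blastocysts, 65.3 and 66.6 CPM in vivo, and 66.2 and 46.4 CPM in vivo after hatching. It was 2.01 ± 0.31 higher in blastocysts (log2, adjusted p = 0.00456) and 1.61 ± 0.30 higher in hatched blastocysts (adjusted p = 0.00735), with no overlap at either stage. S100A11, which binds the tail of ANXA1, was 1.68 ± 0.28 and 2.34 ± 0.29 higher (adjusted p = 0.0059 and 0.000741). AHNAK, the giant scaffold that ANXA2 and S100A10 anchor at the membrane, differed by 0.68 ± 0.38 and 0.75 ± 0.38 and was not called. In hatching in vivo, hatching after IVF and their difference, 0 of the 9 were called by edgeR. Of all genes 6.96%, 0% and 2.79% were called higher there and 7.39%, 0.0451% and 1.93% lower, so 0 of 9 is near these shares. Against 4-cell embryos 7 of 8 tested were called higher at both IVF stages, beside 25.7% of all genes.

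Per gene length ANXA2 exceeded S100A10 in the 9 later libraries with an FPKM value used here. The ratio of their FPKM was 9.12 to 10.8 in IVF blastocysts, 10.6, 20.8 and 13.8 in IVF hatched blastocysts, 15.6 and 19.5 in in vivo blastocysts, and 13.1 in in vivo hatched library 2. Thus the in vivo blastocysts had more ANXA2 per S100A10 message than the IVF blastocysts although both genes were lower in them. In 4-cell embryos the ratio was 0.989 in library 1 and 44.6 in library 2, and S100A10 had 0 reads in library 3.

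**Figure D4:**
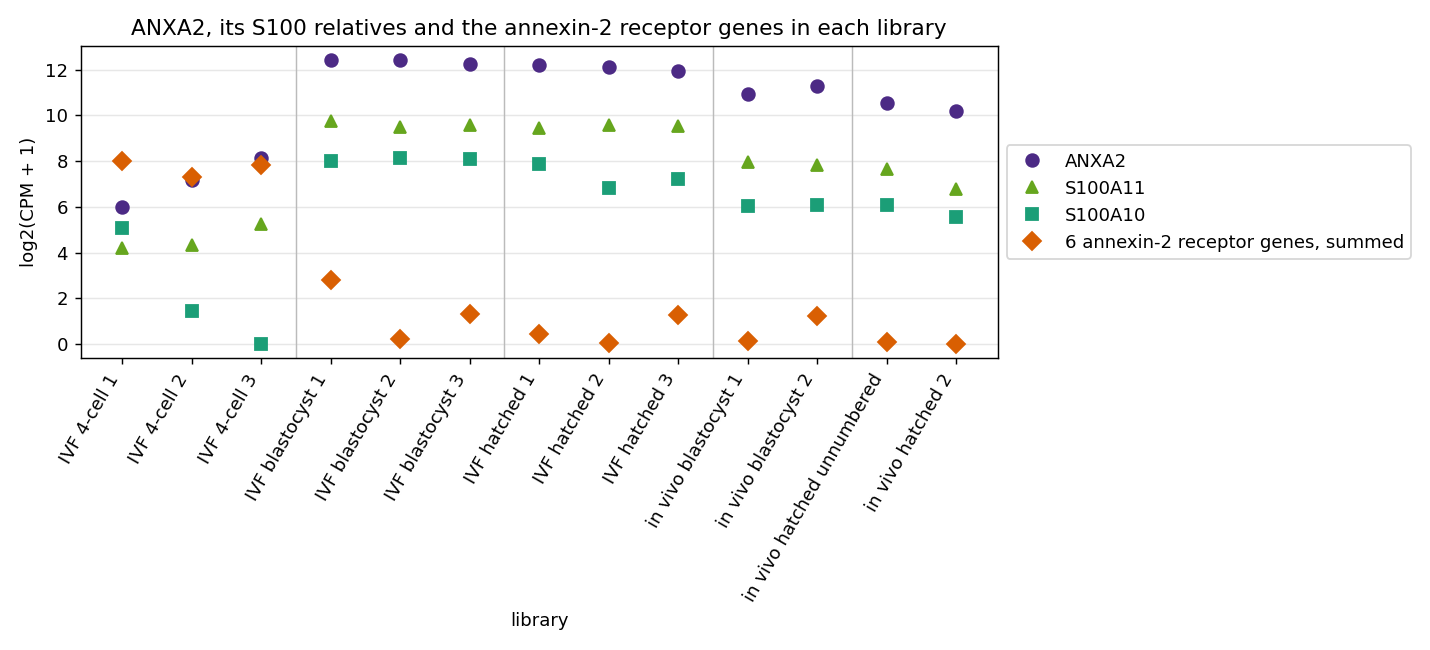
The level of ANXA2, S100A11, S100A10 and the summed annexin-2 receptor genes is given as log2(CPM + 1) for each of the 13 libraries. ANXA2 and S100A11 are lowest in 4-cell embryos and lower in in vivo than in IVF libraries of the later stages, while the receptor genes have 155 to 260 CPM in 4-cell embryos and at most 6.01 CPM in any later library.

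Genes annotated as receptors of ANXA2 were high where ANXA2 was low, in 4-cell embryos. The table lists 6 such genes side by side on chromosome 16 between 27681270 and 27762868, ANXA2R and 5 loci annotated as annexin-2 receptor or receptor-like. They were singled out after their values were seen, and how reads shared by such copies were counted is not known here, so their sum is given first. The 4-cell libraries had 260, 155 and 230 CPM, IVF blastocysts 6.01, 0.155 and 1.51 CPM, and IVF hatched blastocysts 0.365, 0.0259 and 1.44 CPM. In vivo the sum was 0.103 and 1.35 CPM in blastocysts, 0.057 CPM in the unnumbered hatched library and 0 in the other. Every 4-cell library was above every later one, and because of how these genes were picked no test is given. The sum came mostly from LOC110257336, LOC110257337, LOC110257338 and LOC102162127, with 29.4 to 71.4 CPM each in 4-cell libraries. ANXA2R itself had 0.859, 1.20 and 2.49 CPM there, and LOC102162264 0.948, 1.92 and 3.77 CPM.

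The formyl peptide receptor symbols FPR1, FPR2 and FPR3 matched no row, so the receptors of ANXA1 are not described. In the list of ligands, receptors and phospholipase partners, which also holds the plasminogen system bound by ANXA2, 6 genes were tested. After IVF 1 was called higher in blastocysts and 0 in hatched blastocysts, and 0 and 1 lower, beside 6.09% and 6.96% of all genes higher and 4.74% and 4.88% lower. PLA2G4A, the cytosolic phospholipase A2, was called higher after IVF in blastocysts (1.36 ± 0.37, adjusted p = 0.0403). In hatched blastocysts PLAUR, the urokinase receptor, was called lower after IVF, at 0.58 to 1.52 CPM against 14.8 and 19.5 CPM (-4.04 ± 1.13, adjusted p = 0.0392). PTGS2, the inducible cyclooxygenase downstream of phospholipase A2, was called lower after hatching in vivo (-0.997 ± 0.27 on the log2 scale, adjusted p = 0.0317). Against 4-cell embryos 3 were called higher (PLAU, PTGS1 and PTGS2) and 1 lower, beside 25.7% of all genes higher and 30.6% lower in IVF blastocysts. The lower one was PLA2G4A, at 25.9, 265 and 420 CPM in 4-cell embryos and 21.1, 13.9 and 15.2 CPM in IVF blastocysts (-3.71 ± 0.91, adjusted p = 0.00788).

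Genes that expose or recognise phosphatidylserine, the lipid bound by ANXA5, were called higher after IVF in 3 of 12 cases in blastocysts and in 1 of 12 in hatched blastocysts, and 0 were called lower. Over all genes 6.09% and 6.96% were called higher, so the count in hatched blastocysts is near that share. PLSCR1, a phospholipid scramblase, was 1.82 ± 0.27 and 1.56 ± 0.27 higher (log2, adjusted p = 0.00449 and 0.00507), and TMEM30A, the shared subunit of lipid flippases, was 1.02 ± 0.21 higher in blastocysts (adjusted p = 0.0132). The list's median was 0.24 in blastocysts and -0.22 in hatched blastocysts, beside 0.05 and 0.04 over all genes. At hatching in vivo 0 of the 12 were called by edgeR, beside 6.96% of all genes called higher and 7.39% lower.

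Genes of calcium-triggered membrane repair were called in both directions. Of 14 tested, 2 were called higher after IVF in blastocysts (CAPN1 and CAPN2, the large subunits of the calpain proteases) and 2 lower (MYOF and VPS4B), with a median of 0.05, beside 6.09% and 4.74% of all genes. In hatched blastocysts 4 were called higher and 0 lower, beside 6.96% and 4.88% of all genes, led by CHMP3 (1.41 ± 0.21, adjusted p = 0.00218) and CAPNS1 (1.08 ± 0.25, adjusted p = 0.0195), the former a subunit of the ESCRT-III membrane-cutting complex. At hatching in vivo 7 were called lower and 3 higher, beside 7.39% and 6.96% of all genes, with a median of -0.81 beside -0.01. CHMP2A, another ESCRT-III subunit, fell by 1.60 on the log2 scale (SE 0.25, adjusted p = 0.00276), and PDCD6, which encodes the ANXA7 and ANXA11 partner ALG-2, fell by 1.44 (SE 0.26, adjusted p = 0.00568). Against 4-cell embryos 6 of 15 tested were called higher and 2 lower at both IVF stages, beside 25.7% of all genes higher and 30.6% or 30.9% lower.

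The genes with the most similar pattern to each annexin over the 13 libraries were found by the root mean square difference of centred log2(CPM + 1), among 11634 genes with a mean of at least 1 CPM. Nearest to ANXA2 were P2RX4 (0.37), its family partner S100A11 (0.41) and SH3YL1 (0.42), where the spread of ANXA2 itself was 2.07. ANXA5 was nearest to FDX1 (0.37), SFN (0.44) and BOK (0.45), with its own spread at 1.80. For ANXA4 the nearest were SLC25A3 (0.25), VDAC2 (0.25) and NDUFS7 (0.33). ANXA1 had no gene as near as that: PPIC (0.75), TJP3 (0.78) and RAB25 (0.78) came first, beside its own spread of 2.61. The likeness is a description of 13 libraries that share stage and origin.

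ANXA10 and ANXA13, the annexins outside the list, were scarce. ANXA10 had 5.04 CPM in the unnumbered in vivo hatched library and 10.9 CPM in library 2, against 0.952 and 0.728 CPM in in vivo blastocysts and at most 2.94 CPM in any IVF library. It was called higher after hatching in vivo (3.13 ± 0.86, adjusted p = 0.0318), and these 2 libraries were above all others. ANXA13 did not exceed 1.32 CPM in any library.

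Marker levels beside these results were as follows. Summed trophectoderm markers were at 32310 to 38470 CPM in IVF blastocysts and 22180 to 31940 in IVF hatched blastocysts. In vivo they were at 22920 to 22950 CPM in blastocysts and 20170 to 31930 in hatched blastocysts. KRT8 made up most of this sum, with means of 29780 CPM in IVF and 19840 CPM in in vivo blastocysts. In blastocysts 1 of 8 markers, CLDN6, was called higher after IVF and 0 lower, beside 6.09% and 4.74% of all genes. GATA3, TFAP2C and TEAD4 had lower means in IVF than in in vivo blastocysts, and the other markers higher means. Summed epiblast markers were 1142 to 1725 CPM in IVF blastocysts and 982 to 1236 in IVF hatched blastocysts. In vivo they were 806 to 866 CPM in blastocysts and 423 to 596 in hatched libraries. Most of this sum was POU5F1, with group means of 1116 and 893 CPM in IVF and 740 and 428 CPM in vivo. POU5F1, DPPA5 and TDGF1 had higher means in IVF at both stages, and SOX2 and DPPA4 had lower means. Of these 5 epiblast markers 1 was called higher after IVF in blastocysts and 3 in hatched blastocysts, and 0 lower. Of all genes 6.09% and 6.96% were called higher. Summed hypoblast markers were 346 to 1073 CPM in in vivo hatched libraries and 131 to 222 CPM in the other later libraries. Of the 10 hypoblast markers 8 were called lower after IVF in hatched blastocysts and 0 higher, beside 4.88% and 6.96% of all genes. At hatching in vivo 6 of them were called higher and 0 lower, beside 6.96% and 7.39% of all genes. In blastocysts 1 was called higher after IVF and 1 lower. Of the oviduct and uterine markers, 6 of 9 matched the table. Without UPTI their sum was 1.31 to 4.77 CPM in all later libraries, while UPTI, an inhibitor of trypsin-like proteases, had 221 to 378 CPM in IVF and 29.9 to 120 CPM in in vivo libraries. Summed blood and immune markers were at most 6.65 CPM and sperm markers at most 0.662 CPM in later libraries. Cumulus and granulosa markers summed to 13.7 to 210 CPM in later libraries, with FSHR at 0 reads in every library. This sum was mostly CYP11A1, EREG and VCAN. FOXL2, CYP19A1, PTX3, TNFAIP6 and INHA had means of at most 0.28 CPM in the later groups. Stroma and vessel markers summed to at most 54.5 CPM in later libraries, where PECAM1 alone reached 49.65 CPM in an in vivo hatched library. Oocyte and cleavage markers summed to 14830 to 21080 CPM in 4-cell libraries and at most 18.8 CPM later. The part of any of these cell types in the annexin differences was not tested. Library totals ran from 33259311 to 39273867 counts.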

How the data were processed

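Libraries were grouped by stage and origin from their titles. The authors deposited 1 gene table on Sscrofa11.1 with read counts (whole numbers per gene, not normalised) and FPKM (fragments scaled by gene length and library size) for 13 libraries. HISAT2, Bowtie2, RSEM, StringTie 1.3.1 and fastp 0.18.0 are listed in the submitters' processing notes. Which of them made the counts, how these were rounded and whether strand was used is not given in the sources used here. For want of a replicate number on its count column, 1 in vivo hatched library is named unnumbered. Not used were 14 value columns, all TPM columns and the FPKM column numbered 1 of that group, which no label ties to the unnumbered counts.

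From the counts, CPM and edgeR 4.0.16 fits (R 4.3.3, TMM, filterByExpr with a minimum count of 10, quasi-likelihood test, Benjamini-Hochberg) were computed, for the 10 later libraries (15528 genes) and the 9 IVF libraries (16312 genes). The fits were also run on simulated counts that had the same spread setting for every gene. Real libraries need not vary so, and that run does not show how well the fits do here. A gene was called at an adjusted p under 0.05. Totals of 33259311 to 39273867 counts make 3 counts 0.0764 to 0.0902 CPM. No replicate pair was a repeat of 1 library (chi-square over degrees of freedom at least 72.5). Alternatives were DESeq2 1.42.0, other size factors, no filter, all libraries in 1 fit, single libraries left out and a replicate block. The rule for naming was all members, the 2 genes of smallest p from each partner list, and the 3 genes of nearest pattern. Nearest genes are printed for ANXA1, ANXA2, ANXA4 and ANXA5 only. Further list genes (S100A6, S100A13, S100A16, AHNAK, PDCD6 and the members of small counts) were named after their values were seen. The members and the gene lists were chosen with earlier results of these data known. Positions are from RefSeq by gene number. Among all genes 488 share a symbol with another, none of them a member.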

Additional observations from a re-analysis of the deposited data

How the results depend on the processing

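With 2 or 3 libraries a group, single libraries decide many calls. Members called with 1 library left out ranged from 2 to 4 (IVF against in vivo blastocysts), 2 to 4 (hatched blastocysts), 0 to 3 (in vivo hatching), 0 to 2 (difference of the hatching changes), 0 to 0 (IVF hatching), and 6 to 8 for each IVF stage against 4-cell embryos. Where a group is left with 1 library, that library is assumed to vary like the other groups. DESeq2 called 5 members in hatched blastocysts and 1 for the difference of the hatching changes, and 1 was called there without a filter on low counts. With all 13 libraries in 1 fit, 0 members were called in blastocysts, 0 in hatched blastocysts and 0 for in vivo hatching. Among 840 member values under alternatives 43 changed sign, and 0 of these were called.

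Genes called, in the order blastocysts, hatched blastocysts, in vivo hatching, IVF hatching and the difference of the hatching changes, were 1681, 1839, 2228, 7 and 732. DESeq2 gave 2944, 3001, 3562, 51 and 1879. Without a filter the first pair were 2749 and 2850 and the last pair 162 and 1855. The fit of all 13 libraries gave 7, 92, 101, 0 and 1. With 1 library left out the ranges were 320 to 1757, 513 to 2068, 1064 to 2153, 4 to 7 and 333 to 969, and 7622 to 11451 and 7511 to 11531 for the IVF stages against 4-cell embryos (9185 and 9230 with all). Libraries of the same replicate number shared no visible deviation: over 19 such pairs the correlation of deviations ran from -0.12 to 0.02. Whether they came from the same animals or rounds cannot be told from this. A replicate block, without the unnumbered library, gave 1028, 1145, 1146, 5 and 347 genes and called 3, 4, 3, 0 and 0 members. It called ANXA5 and ANXA9 in hatched blastocysts (adjusted p = 0.0264 and 0.0291) and ANXA9 at in vivo hatching (0.0226), and lost ANXA8 at both stages (0.0665 and 0.4) and ANXA5 at in vivo hatching (0.242). DESeq2 gave no adjusted p for ANXA4 against 4-cell embryos.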

Other observations

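S100A4, a relative of the annexin partner S100A10, was seen in 1 library above all others. It had 2931 reads (82.3 CPM) in IVF hatched blastocyst library 1, 18 and 10 reads in IVF blastocyst libraries 2 and 3, and 0 reads in the remaining 10 libraries. In S100A10 the same library had 234 CPM, above the other IVF hatched libraries (111 and 148 CPM) and below all 3 IVF blastocyst libraries. Among the IVF hatched libraries it was also highest in S100A6 (25.1 beside 8.02 and 9.99 CPM) and AHNAK (81.5 beside 43.2 and 37.8 CPM). It was the lowest of them in S100A11 and S100A16.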
